A study of Arabidopsis thaliana with 18 samples.

Results

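The iron effect described here is the difference between roots without and with iron, averaged over 3 genotypes of Arabidopsis thaliana. All 18 arrays of the series enter it, 9 without iron (-Fe) and 9 with iron (+Fe), and no array was left out. The question put to it is which transcripts changed too little to be called in any 1 genotype and were called only in the mean of the 3. Root RNA was hybridised to single-colour Affymetrix ATH1 arrays, with 3 biological replicates in each of 6 groups. Every plant shared the Col-0 background. The groups were ubc13A, labelled ubc13-/-, a Col-0 line overexpressing cucumber CsUBC13 (CsUBC13-OE), and wild-type Col-0, each at both supplies. UBC13 enzymes pass ubiquitin on to target proteins. At an age of 10 days the seedlings went onto ES medium that lacked or held FeEDTA, an iron chelate, and after 3 days the roots were taken. No source used here gives the transgene's promoter or how many lines stand behind a genotype. The probe set for the mutated gene names UBC35 and UBC36 together, so the mutant's label was not checked on a probe set of its own.

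Roots short of iron switch on a cascade of basic helix-loop-helix (bHLH) transcription factors that drives iron reduction, uptake and the secretion of coumarins, which mobilise iron. Iron is also a cofactor of heme and iron-sulfur proteins in mitochondria and plastids, and roots short of it are known to cut back some such proteins. Ubiquitin ligases of the BTS family limit the cascade by marking subgroup IVc bHLH factors for degradation.

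At the strong end of the scale stood the iron-deficiency genes known in roots. S8H, an enzyme of coumarin synthesis, had signal intensities of 7113 to 10220 (median 9129) on the -Fe arrays, against 4.9 to 41.5 (median 22) on the +Fe arrays. CYP71B5, a cytochrome P450, had 1221 to 2630 (median 1851) on the -Fe arrays, against 0.6 to 16.6 (median 3.7) on the +Fe arrays. AT3G61930, which the annotation used here does not name, differed by a log2 value of 5.57 in the same direction. The lower end was led by AT1G52820 (log2 -3.68), AT3G45710 (log2 -2.02) and AT5G01740 (log2 -2.01). For all 6 the -Fe and +Fe arrays did not overlap. Log2 values throughout are those of -Fe over +Fe signal after adding 16 to each signal, so they understate the change of dim genes. Of the 22746 probe sets tested, 795 (3.5%) had 9 -Fe arrays entirely above or below the 9 +Fe arrays.

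Averaging the genotypes gave more calls than the genotypes taken singly. With limma and a Benjamini-Hochberg adjusted p under 0.05, 3241 probe sets (14.2%) were called in the mean effect. Of these 1316 (5.79%) were higher and 1925 (8.46%) lower without iron. Taken singly, ubc13A gave 847 calls (3.72%), CsUBC13-OE 984 (4.33%) and Col-0 970 (4.26%), and 1516 probe sets (6.66%) were called in at least 1 genotype. The mean effect took in 1411 of those and left out 105. The remaining 1830 (8.05%) were called in the mean and in no single genotype: 649 higher (2.85%) and 1181 lower (5.19%). They made up 56.5% of all calls, 49.3% of the higher ones and 61.4% of the lower ones. Standard errors of log2 differences had a median of 0.11 in the mean and 0.18 in 1 genotype, and the smallest called difference was 0.15 in the mean against 0.33 in Col-0 and 0.35 in either other genotype.

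**Figure D1:**
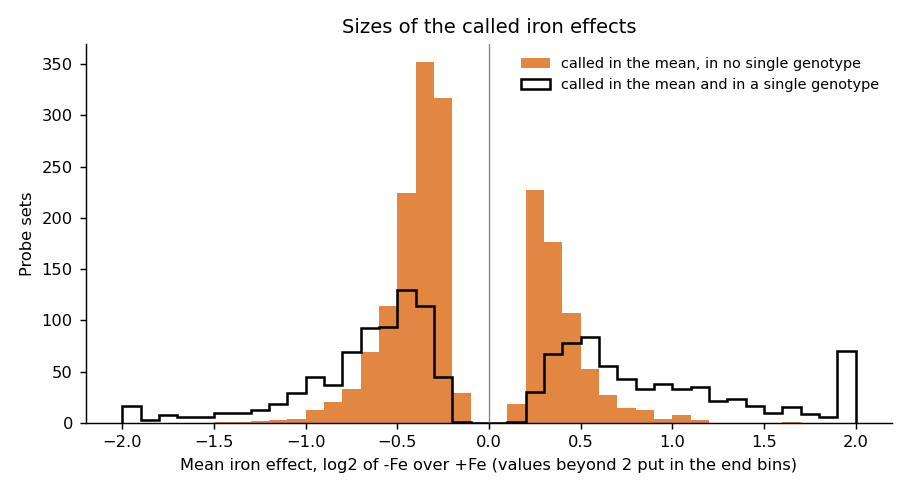
Number of probe sets (vertical axis) by mean iron effect, log2 of -Fe over +Fe in bins of 0.1 (horizontal axis). The 1830 called in the mean alone (orange) crowd on both sides of 0 with a median size of 0.36, while the 1411 also called in a single genotype (black outline) have a median size of 0.64 and long tails.

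The moderate changes were small by construction. Their median size was 0.36 on the log2 scale, which is 1.28-fold with quartiles of 0.28 and 0.47. In all 1604 of them (87.7%) were under 1.5-fold and 23 reached 2-fold. Calls that a single genotype also made had a median of 1.55-fold. The moderate class had a median signal of 399.4, against 202.4 over all probe sets tested. The groups of 9 arrays, pooled over genotypes, were fully apart for 76 of the 1830 (4.15%). The fit removes differences of level between genotypes, and this pooled reading does not. An overlap of the pooled arrays therefore need not mean an overlap within a genotype. Of the 1830, 298 reached an unadjusted p under 0.05 in each genotype, 809 in 2, 682 in 1 and 41 in none. The split by direction depends on scaling: 35.5% of the class was higher as deposited, 43.7% after quantile normalization and 56.6% with each array centred on its median. Over all calls these shares were 40.6%, 47.8% and 58%. With the 6 arrays of ubc13A, CsUBC13-OE or Col-0 left out, 32.8%, 28.3% and 24.3% of the 1830 were still called.

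Choosing a class on 2 genotypes and reading it in the other gives values from arrays the choice did not use. When the class was drawn from CsUBC13-OE and Col-0, 857 of its 945 probe sets (90.7%) had the same sign in ubc13A, against 65.1% of all probe sets. Drawn from ubc13A and Col-0, 750 of 785 (95.5%) had the same sign in CsUBC13-OE, against 68% of all. Drawn from ubc13A and CsUBC13-OE, 758 of 793 (95.6%) had the same sign in Col-0, against 67.5% of all. An unadjusted p under 0.05 with that sign was reached by 37.6% in ubc13A, 51% in CsUBC13-OE and 55.5% in Col-0, where all probe sets gave 12.2%, 11.5% and 13.6%. The median size was smaller in the genotype left out than in the pair that chose the class: 0.32 against 0.46 for ubc13A, 0.40 against 0.46 for CsUBC13-OE, and 0.42 against 0.49 for Col-0. Whether that shrinkage differed between genotypes was not tested. By direction, 94.7% to 96.3% of the higher members had the same sign, against 60.5% to 63.1% of all probe sets. For the lower members the shares were 88.3% to 95.4%, against 68.3% to 71.5%. This reading was made on the deposited scaling and was not repeated with arrays centred on the median.

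**Figure D2:**
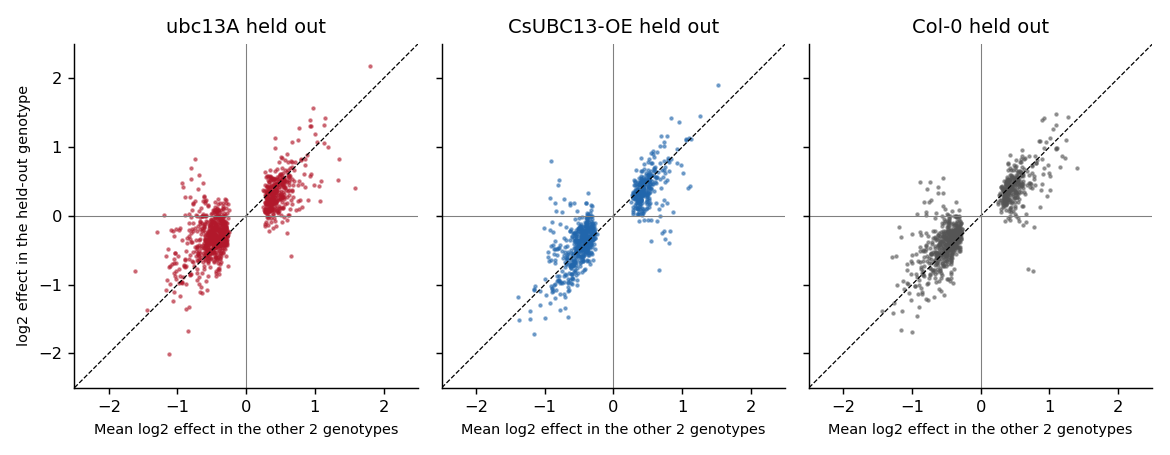
Iron effect in the genotype left out (vertical axis, log2 of -Fe over +Fe) against the mean effect in the 2 genotypes that chose the probe sets (horizontal axis, log2), one point per probe set, dashed line at equality. Most points lie in the 2 quadrants of matching sign, 90.7% for ubc13A, 95.5% for CsUBC13-OE and 95.6% for Col-0.

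A moderated F test of the differences between genotypes called 1 probe set of 22746 at an adjusted p under 0.05, that of AT2G06140, with log2 values of -0.16 in ubc13A, -1.31 in CsUBC13-OE and 0.10 in Col-0. It called none of the 1830, of which 10 (0.546%) had an unadjusted p under 0.05 against 4.28% of all, a share on which the choice of the class bears. All 3 genotypes had the same sign for 1813 of the 1830 (99.1%), which the choice of the class partly fixes, against 47.2% of all probe sets.

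The 14 higher genes with the smallest p in the class were ILR3 and 13 loci without a symbol in the annotation used here. AT5G38900 and AT5G39580 had the greatest differences, log2 1.11 (95% interval 0.70 to 1.52) and 1.05 (0.67 to 1.42), and AT4G34950 followed with 0.75. The other 11 ranged from 0.31 for ILR3 to 0.54 for AT3G23570, and 4 of the 14 were free of overlap between supplies: AT5G20030, ILR3, AT3G58600 and AT1G15350. AT5G20030 had 109.5 to 179.5 (median 121.6) on the -Fe arrays, against 74.7 to 106.4 (median 88.1) on the +Fe arrays. AT1G15350 had 673.2 to 779.9 (median 721.3) on the -Fe arrays, against 479.8 to 665.4 (median 514.9) on the +Fe arrays. The call of AT4G34950 ended when CsUBC13-OE was left out.

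The 14 lower genes were led by AT4G20230 (log2 -0.75, 95% interval -1.0 to -0.49), with PRN and RALFL33 as the 2 that carry symbols. PRN encodes a pirin, a member of a family of iron-binding cupin proteins. Its signals were 187.3 to 272.4 (median 229) on the -Fe arrays, against 244.7 to 428.2 (median 356) on the +Fe arrays, a log2 difference of -0.56 (95% interval -0.76 to -0.35, limma adjusted p 0.00095). The genotypes gave -0.47 in ubc13A, -0.59 in CsUBC13-OE and -0.60 in Col-0, and the ranges of the supplies overlapped slightly. AT1G72160 had 2015 to 2740 (median 2458) on the -Fe arrays, against 2921 to 3459 (median 3138) on the +Fe arrays, with no overlap. AT5G08400 and AT5G58900 were also free of overlap, at log2 -0.36 and -0.34. The remaining lower genes lay between -0.36 and -0.67. The call of AT1G09750 ended when CsUBC13-OE was left out.

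**Figure D3:**
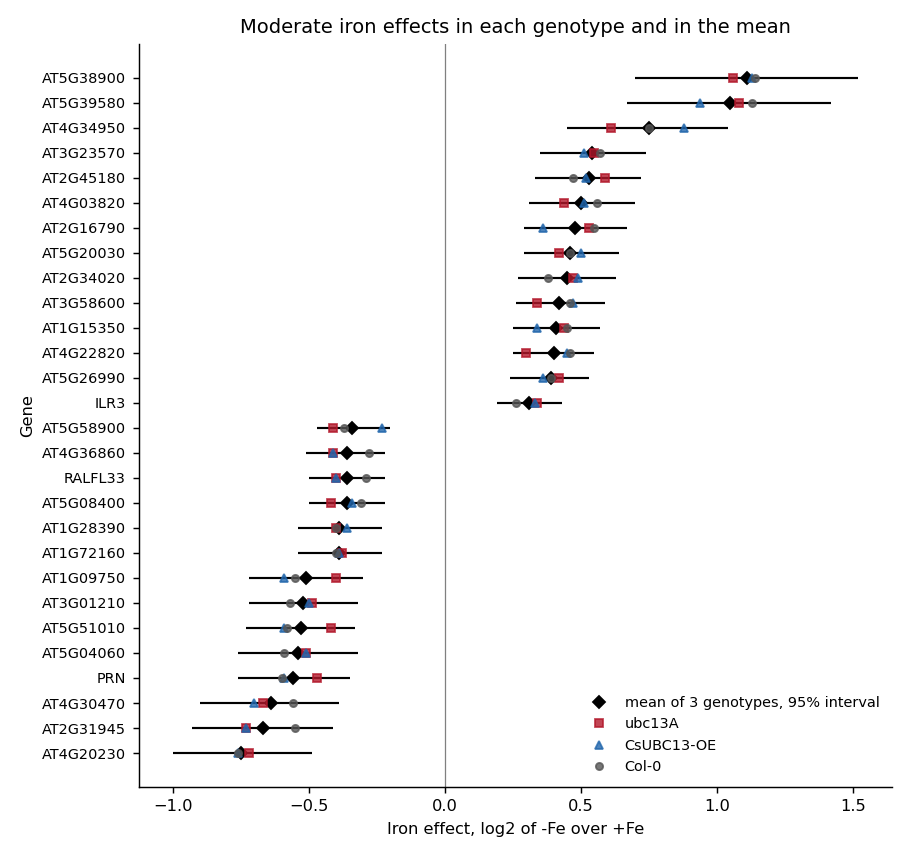
Iron effect (horizontal axis, log2 of -Fe over +Fe) of the 28 eligible moderate genes with the smallest p, 14 higher and 14 lower, by gene (vertical axis). Black diamonds are the mean of the 3 genotypes with its 95% interval and coloured symbols are the genotypes, which lie near the mean for every gene drawn, as for ILR3 at 0.34 in ubc13A, 0.33 in CsUBC13-OE and 0.26 in Col-0.

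Among the iron regulators, the moderate class held ILR3. The iron uptake and regulator list had 10 measured members, of which 7 were higher and none lower, where 5% of all 13355 genes measured were higher and 7.23% lower; its median was log2 0.90 against -0.05 for all genes. Of the 7, ILR3 was the one called in the mean alone. ILR3 is a bHLH factor of subgroup IVc that sits near the top of the cascade. Its signals were 1677 to 2119 (median 1773) on the -Fe arrays, against 1340 to 1671 (median 1468) on the +Fe arrays, a 1.24-fold difference (log2 0.31, 95% interval 0.19 to 0.43, limma adjusted p 0.00118). The lowest -Fe array lay just above the highest +Fe array. Among its subgroup relatives, bHLH115 had a 1.28-fold difference and was also called in a single genotype, whereas bHLH104 (log2 0.02) and bHLH34 (log2 -0.21) were not called. bHLH121, their partner, had a log2 value of 0.08 and was not called. Downstream, BHLH101 (log2 4.19), IMA1, an iron-signalling peptide (log2 3.48), and the ubiquitin ligases BTSL1 (log2 2.36) and BTSL2 (log2 1.99), which limit the response, all rose and were free of overlap.

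Iron-sulfur and redox genes went both ways. SUFE2, which activates plastid sulfur release for cluster assembly, rose by log2 1.24, and ISU1, a mitochondrial scaffold for cluster assembly, rose by log2 0.41; the other 2 of the 4 measured assembly genes were not called. HCF101, a plastid carrier of iron-sulfur clusters for photosystem I, fell by 0.45 on the log2 scale in the mean alone, with 75.2 to 168.9 (median 145.6) on the -Fe arrays, against 145.9 to 268 (median 197.4) on the +Fe arrays. The HCF101 call (limma adjusted p 0.0476) ended with arrays centred on the median and in 14 of the 18 fits without 1 array, with an adjusted p of up to 0.0954. GRXC1, a glutaredoxin, had 576.7 to 824.1 (median 650.3) on the -Fe arrays, against 493.6 to 632.4 (median 549.5) on the +Fe arrays, and its log2 difference of 0.30 had a limma adjusted p of 0.00734. The methionine sulfoxide reductases, which repair oxidised proteins, divided. MSRB5 rose by log2 0.26 while MSRB6 fell by 0.45 on the log2 scale, and the other 3 measured were not called. Both calls ended in most fits without 1 array, 10 of 18 for MSRB5 and 13 of 18 for MSRB6, and that of MSRB6 also with arrays centred on the median. CCS, the copper chaperone of superoxide dismutase (log2 0.64), and SAPX, a heme-containing ascorbate peroxidase (log2 -1.82), changed enough to be called in a genotype.

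Genes of the ubiquitin system were called in both directions, where 5% of all genes measured were higher and 7.23% lower. The 12 measured ubiquitin-conjugating enzymes had 3 higher and 1 lower, with a median of log2 0.02. UBC30 had 2961 to 5064 (median 3787) on the -Fe arrays, against 2365 to 3622 (median 3021) on the +Fe arrays, a log2 difference of 0.35 (95% interval 0.16 to 0.54). UBC29 rose by log2 0.42 and UBC32, an enzyme of protein degradation at the endoplasmic reticulum, by 0.21. UBC29 gave 0.11 in ubc13A, 0.55 in CsUBC13-OE and 0.59 in Col-0, and its call ended when Col-0 was left out. UBC19, a relative of the cell-cycle enzyme E2-C, fell by 0.19 on the log2 scale. The UBC32 and UBC19 calls each ended in 13 of the 18 fits without 1 array, and that of UBC19 also with arrays centred on the median. With any genotype left out the calls of UBC30, UBC32 and UBC19 ended. UBP22, the deubiquitinating enzyme that acts on histone H2B, had 336.4 to 552.1 (median 418.4) on the -Fe arrays, against 257.4 to 363.9 (median 311.3) on the +Fe arrays. Its log2 difference of 0.39 (95% interval 0.21 to 0.58) was the one call among 12 measured ubiquitin-specific proteases. The UBP22 call ended when Col-0 was left out. LUL1, one of 3 measured LOG2-like ubiquitin ligases, rose by log2 0.31, and with arrays centred on the median 2 of the 3 were higher. The 12 measured ATL and PUB ligases gave 1 call in each direction, PUB23 at log2 1.79 and ATL8 at log2 -0.48. The ATL8 call ended with arrays centred on the median and in 8 of the 18 fits without 1 array. When CsUBC13-OE or Col-0 was left out, the LUL1 and ATL8 calls ended.

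The ATG8 proteins are ubiquitin-like tags that are attached to the membrane of forming autophagosomes. All 7 genes on the ATG8 list, ATG8B to ATG8H, had a log2 value above 0, with a median of 0.26, and 3 were called higher, all in the mean alone. The list may not hold the whole family. Over all 13355 genes measured 5336 were above 0, with a median of -0.05, and 5% were called higher. This list and the ESCRT list below were picked once values had been seen. ATG8F had 2623 to 3238 (median 2865) on the -Fe arrays, against 1995 to 2834 (median 2544) on the +Fe arrays, a log2 difference of 0.26 (95% interval 0.11 to 0.41, limma adjusted p 0.0209). ATG8D (log2 0.34) and ATG8G (log2 0.27) lost their calls in 7 and 11 of the 18 fits without 1 array. With any genotype left out the calls of ATG8F, ATG8D and ATG8G ended. ATG8E (log2 0.38, adjusted p 0.0542), ATG8C (0.17), ATG8B (0.12) and ATG8H (0.04) were not called. Of 11 measured subunits of the ESCRT and Vps machinery, which sorts ubiquitinated membrane proteins to the vacuole, 3 were higher: VPS20.1 (log2 0.31), VPS60.2 (0.26) and SNF7.1 (0.20), or 6 with arrays centred on the median, where 5% of all genes measured were higher. VPS60.2 gave -0.03 in ubc13A, 0.54 in CsUBC13-OE and 0.26 in Col-0. ARA6, a plant-specific endosomal Rab GTPase, rose by log2 0.22. VPS20.1 lost its call without replicate 1 of Col-0 with iron or replicate 3 of CsUBC13-OE without iron (adjusted p up to 0.0536), VPS60.2 lost it in 10 of 18 such fits and ARA6 in 5. SNF7.1 and ARA6 lost their calls with any genotype left out. VPS20.1 lost its call without ubc13A or CsUBC13-OE, and VPS60.2 without CsUBC13-OE or Col-0.

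Sugar facilitators of the SWEET family moved in opposite directions. SWEET16, a sugar facilitator of the vacuolar membrane, had 167.1 to 452.9 (median 329.2) on the -Fe arrays, against 95.2 to 241.4 (median 194.4) on the +Fe arrays, a log2 difference of 0.71 (95% interval 0.33 to 1.1). SWEET14 rose by log2 0.56, also in the mean alone, and lost its call in 12 of the 18 fits without 1 array. SWEET17, which carries fructose across the vacuolar membrane, rose by log2 0.56 and SWEET2 fell by 0.91 on the log2 scale, each with no overlap between supplies. Of all 14 measured sugar transporters 3 were higher and 1 lower, where 5% of all genes measured were higher and 7.23% lower.

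**Figure D4:**
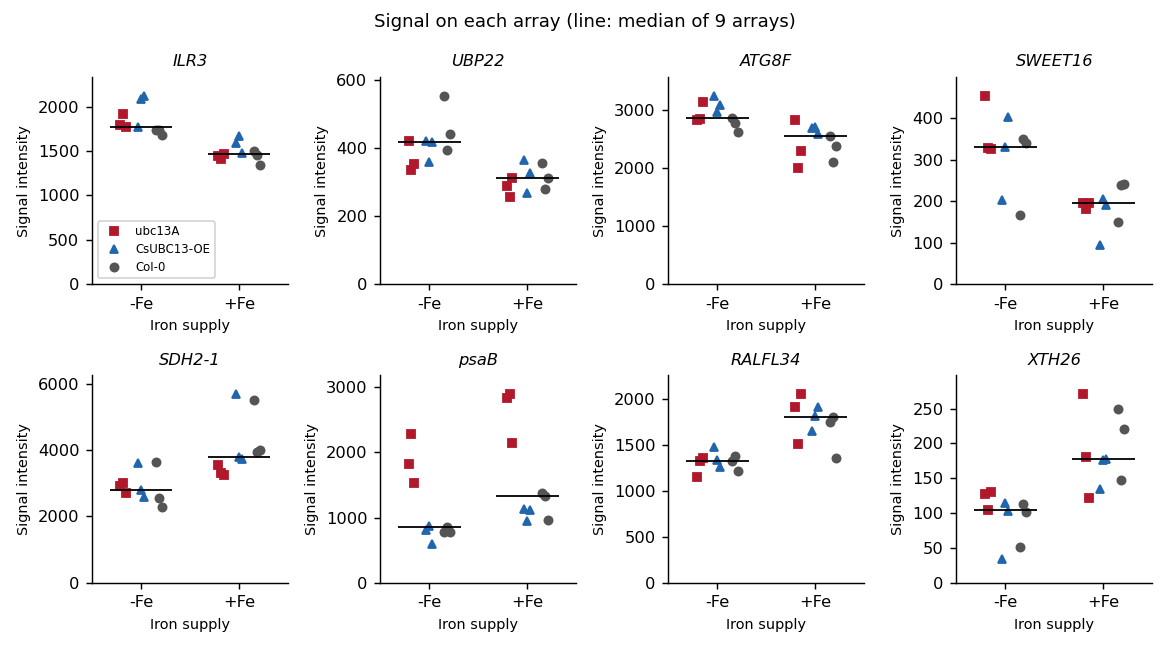
Signal intensity on each array (vertical axis, linear, from 0) without iron (-Fe) and with iron (+Fe) for 8 genes called in the mean alone, with symbols by genotype and a line at the median of 9 arrays. ILR3 has no overlap between supplies (1677 and above without iron, 1671 and below with iron) while the other 7 overlap, and psaB is high in ubc13A at both supplies.

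Succinate dehydrogenase, which links the citric acid cycle to the chain, had 4 measured genes, 3 of them lower, with a median of log2 -0.53. Over all genes measured 7.23% were lower, and this list was picked once values had been seen. SDH2-1, an iron-sulfur subunit, was called in the mean alone, with 2292 to 3636 (median 2786) on the -Fe arrays, against 3244 to 5689 (median 3783) on the +Fe arrays (log2 -0.48, 95% interval -0.73 to -0.23). The other iron-sulfur subunit gene, SDH2-2, fell by 0.68 on the log2 scale. Of the genes for the flavoprotein subunit, SDH1-2 fell by 0.59 on the log2 scale and SDH1-1 (log2 -0.07) was not called. SDH1-2 gave -0.23 in ubc13A, -0.59 in CsUBC13-OE and -0.94 in Col-0 (moderated F test adjusted p 0.769). CYTC-2, a cytochrome c gene, fell by 1.03 on the log2 scale. SDH2-1 gave -0.23 in ubc13A, -0.53 in CsUBC13-OE and -0.67 in Col-0, and its call ended when CsUBC13-OE or Col-0 was left out.

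Of 69 measured genes of the plastid genome 66 had a log2 value below 0, with a median of -0.21, and 8 were called lower (11.6%, against 7.23% of all genes). Over all 13355 genes measured 8019 were below 0, with a median of -0.05. The plastid list was picked once values had been seen. Called in the mean alone were petA (cytochrome f, log2 -0.39), petB (a b-type cytochrome, -0.30), psaB (a photosystem I core protein, -0.52), psbE (a subunit of a photosystem II cytochrome, -0.46), rpoB (a plastid RNA polymerase subunit, -0.46) and atpE (an ATP synthase subunit, -0.33). The rbcL gene of the large Rubisco subunit was called in single genotypes too, at log2 -0.87, as was psbJ at -0.46, whose call ended in 4 of the 18 fits without 1 array. The psaB signal averaged 1879 ± 383 without iron and 2623 ± 412 with iron in ubc13A, 757.8 ± 142 and 1065 ± 98.9 in CsUBC13-OE, and 802.6 ± 42.9 and 1218 ± 227 in Col-0 (SD, n = 3 arrays each). The ubc13A arrays had the highest psaB signals at either supply, while the log2 differences were -0.49 in ubc13A, -0.50 in CsUBC13-OE and -0.58 in Col-0. With arrays centred on the median 60 of the 69 were below 0 and 5 were called lower. The calls of petB, psbE and atpE ended with arrays centred on the median and in 11, 13 and 14 of the 18 fits without 1 array. The rpoB call ended under quantile normalization.

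Of 8 measured nuclear genes of the photosystems 6 were lower, or 4 with arrays centred on the median, and the median was log2 -0.48. Over all genes measured 7.23% were lower, with a median of -0.05, and this list was picked once values had been seen. LHCB4.2, an antenna protein of photosystem II, had 197.2 to 402.8 (median 282.4) on the -Fe arrays, against 336.5 to 588.7 (median 403.6) on the +Fe arrays, a log2 difference of -0.63 (95% interval -0.91 to -0.35). PSAE-1 (log2 -0.47) and PSBW (log2 -0.44) were also called in the mean alone, but their calls ended with arrays centred on the median and in 14 and 12 of the 18 fits without 1 array. PSBW gave 0.11 in ubc13A, -0.78 in CsUBC13-OE and -0.64 in Col-0. Replicate 1 of ubc13A with iron stood low for PSAE-1. Of the markers of green tissue fixed for these roots, 3 of 4 measured were lower, RCA (log2 -0.66), LHCB4.1 (-0.48) and PSAE-1, and PRK (-0.15) was not called. Among single genotypes, RCA and LHCB4.1 were called in CsUBC13-OE alone. RCA gave -0.47 in ubc13A, -0.94 in CsUBC13-OE and -0.59 in Col-0. LHCB4.1 gave -0.24, -0.89 and -0.32 in the same order, and its call ended when CsUBC13-OE was left out. The summed signal of the 4 markers ran from 1857 to 2746 on the -Fe arrays, against 2232 to 4078 on the +Fe arrays. These markers overlap the photosystem genes, none is at 0, and the share that green tissue in the root samples had in these differences was not tested. The lists for endodermis, xylem and phloem had no gene measured by a probe set of its own. In whole roots fewer cells of a type and less RNA per cell cannot be told apart. In tetrapyrrole synthesis, which makes heme and chlorophyll, 3 of 10 measured genes were called, all in the mean alone. CHLM, which methylates magnesium protoporphyrin on the way to chlorophyll, fell by 0.48 on the log2 scale and HEME2, uroporphyrinogen decarboxylase, by 0.27. GSA1, which makes the precursor aminolevulinate, rose by log2 0.27. TROL, a thylakoid protein that anchors ferredoxin reductase, had a log2 difference of -0.46 and CHL, a plastid lipocalin, one of -0.49.

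**Figure D5:**
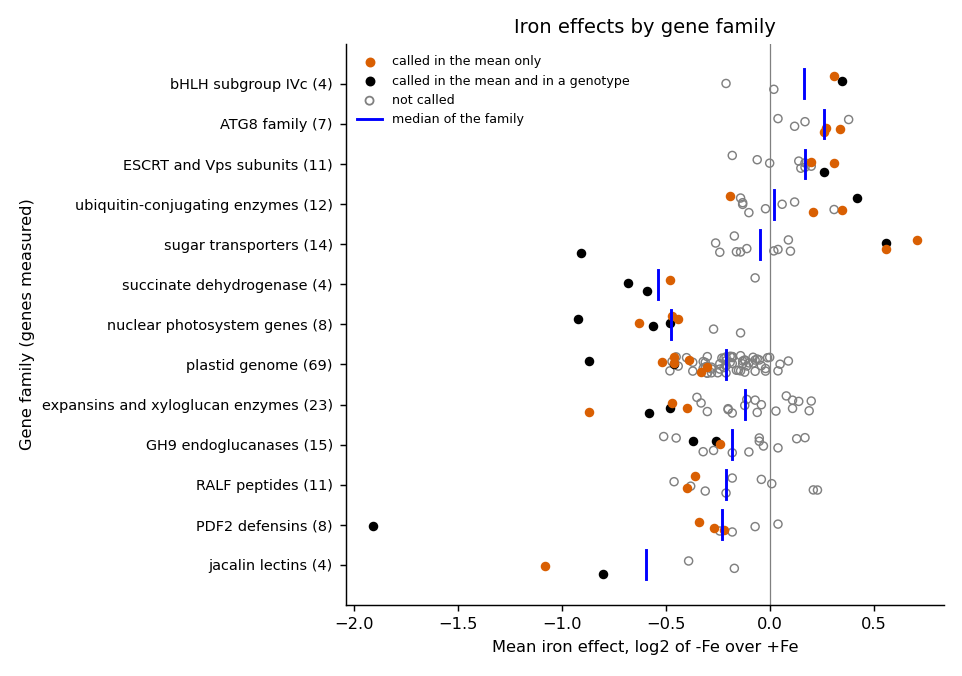
Mean iron effect (horizontal axis, log2 of -Fe over +Fe) of every measured gene on 13 family lists (vertical axis, number measured in brackets). Points are filled where called and orange where called in the mean alone, with a blue line at each median. The ATG8 genes listed all lie above 0 (median 0.26), and the nuclear photosystem genes listed all lie below 0 (median -0.48). All families but the ubiquitin-conjugating enzymes, sugar transporters, and expansins and xyloglucan enzymes were picked once values had been seen.

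Of 23 measured expansins and xyloglucan enzymes, which loosen and rebuild walls, 5 were lower and none higher, with a median of log2 -0.12. XTH26, an enzyme that cuts and rejoins xyloglucan, had 34.2 to 129.8 (median 105.1) on the -Fe arrays, against 120.9 to 270.5 (median 177.3) on the +Fe arrays, a log2 difference of -0.87 (95% interval -1.30 to -0.43). XTH32 (log2 -0.47) and EXPB3, a beta-expansin (-0.40), were the others called in the mean alone. XTH26 is also on the list of root hair genes, whose other 3 measured members, EXPA7 (0.20), EXPA18 (-0.33) and AT1G30870 (-0.17), were not called; the summed signal of the list ran from 3320 to 4482 on the -Fe arrays, against 2809 to 5971 on the +Fe arrays. Of 15 measured GH9 endoglucanases, which cut cellulose, 3 were lower and none higher, with GH9B7 (log2 -0.24) called in the mean alone; its call ended with arrays centred on the median. Among 22 measured TBL proteins, many of which acetylate wall polymers, 2 were higher and 3 lower, or 1 lower with arrays centred on the median, against 5% and 7.23% of all genes measured.

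RALF peptides are secreted signals that alkalinise the medium and slow root growth, and 2 of 11 measured were lower. Over all genes measured 7.23% were lower. The RALF, PDF2 and jacalin lists were picked once values had been seen. RALFL33 had 1050 to 1476 (median 1235) on the -Fe arrays, against 1458 to 2019 (median 1525) on the +Fe arrays, a log2 difference of -0.36 (95% interval -0.50 to -0.22, limma adjusted p 0.00167). RALFL34 had 1154 to 1474 (median 1329) on the -Fe arrays, against 1353 to 2049 (median 1804) on the +Fe arrays, and its log2 difference was -0.40. The 2 ranges overlapped for either peptide, by less for RALFL33. Of 8 measured PDF2 defensins 4 were lower, or 1 with arrays centred on the median. Of the 4, LCR68 (log2 -0.22), LCR69 (-0.27) and PDF2.5 (-0.34) were called in the mean alone. The ER body is a store of beta-glucosidase in root cells, and PYK10 is its main enzyme. PYK10 had 12890 to 17230 (median 15360) on the -Fe arrays, against 15760 to 22640 (median 16980) on the +Fe arrays, a log2 difference of -0.22 (95% interval -0.35 to -0.09). NAI2, which is needed for the ER body to form, fell by 0.47 on the log2 scale, and the jacalin lectins JAL22 and JAL33 fell by 1.08 and 0.80. The PYK10 call and the 3 defensin calls of the mean alone ended with arrays centred on the median, with adjusted p from 0.0925 to 0.13, and in 6 to 15 of the 18 fits without 1 array.

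Enzymes of secondary metabolism were divided. Of 47 measured UDP-glycosyltransferases 5 were higher and 5 lower, and 1 and 4 of these were called in the mean alone. With arrays centred on the median 3 were lower, and over all genes measured 5% were higher and 7.23% lower. UGT72B3 had 19.6 to 82.3 (median 62.9) on the -Fe arrays, against 77.3 to 136.9 (median 117.1) on the +Fe arrays, a log2 difference of -0.90. GT72B1, of the same subfamily, had a log2 difference of -0.53. Of 14 measured glutathione transferases, which conjugate glutathione to reactive compounds, 2 were higher and 3 lower. GSTU25 had the greatest difference of these in the mean, log2 1.04, with 0.25 in ubc13A, 1.52 in CsUBC13-OE and 1.35 in Col-0, and 1188 to 5810 on the -Fe arrays, against 792.2 to 2930 on the +Fe arrays. Its call ended in 6 of the 18 fits without 1 array. Of 21 measured beta-glucosidases 1 was higher and 5 lower, or 2 and 4 with arrays centred on the median. BGLU42, which acts on coumarins, rose by log2 3.75, while BGLU45 (-0.76) and BGLU46 (-0.52), which act on monolignols, and BGLU44 (-0.34), BGLU47 (-0.81) and PYK10 were lower. Of 22 measured cytochromes P450 1 was higher and 5 lower, none of them in the mean alone; CYP718, outside that list, was lower in the mean alone at log2 -1.42.

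Of the gibberellin receptors, GID1A rose by log2 0.24 and GID1B fell by 0.30 on the log2 scale, while GID1C (0.04) was not called. GID1A had 1032 to 1362 (median 1233) on the -Fe arrays, against 814.5 to 1117 (median 1055) on the +Fe arrays. GID1B had 533.9 to 706.2 (median 596.1) on the -Fe arrays, against 608.8 to 1004 (median 719.9) on the +Fe arrays. The GID1A call ended in 7 of the 18 fits without 1 array, and the GID1B call ended in 3, without replicate 1 of Col-0 with iron, replicate 3 of Col-0 without iron or replicate 3 of CsUBC13-OE without iron (adjusted p up to 0.0534), and with arrays centred on the median. AGL21, a MADS-box factor of root development, rose by log2 0.38. The Mediator subunits MED9 and MED31 rose by log2 0.31 and 0.21, with calls that ended in 6 and 10 of the 18 fits without 1 array. Among genes chosen after their values were seen, lower values were found for TOPII, a DNA topoisomerase (log2 -0.31), 3xHMG-box2, which binds chromosomes (-0.31), and RECQ4A, a DNA helicase (-0.37), all of whose calls ended with arrays centred on the median and in 13, 2 and 10 of the 18 fits without 1 array. The 2 arrays that ended the 3xHMG-box2 call were replicate 2 of Col-0 and replicate 3 of CsUBC13-OE, both with iron (adjusted p up to 0.0564). HYH, a bZIP factor of light signalling, fell by 0.46 on the log2 scale, a call that centring also ended, as did leaving out replicate 1 of Col-0 or replicate 3 of CsUBC13-OE, both with iron (adjusted p up to 0.052). VTC4, an enzyme of ascorbate synthesis (-0.35), and COR47, a dehydrin (-0.42), were lower. PAHX, whose animal counterpart is an iron-dependent phytanoyl-CoA hydroxylase, rose by log2 0.42, and BIGYIN, a protein of organelle division, by log2 0.35. EULS3, a lectin, rose by log2 0.82.

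At the threshold itself, AT1G31440 (log2 0.27, limma adjusted p 0.0498) and AT1G44920 (log2 -0.32, adjusted p 0.04999) lay just inside, and AT5G27700 (log2 -0.26, adjusted p 0.05001) and AT1G65510 (log2 0.34, adjusted p 0.0501) just outside. AT1G44920 gave -0.03 in ubc13A, -0.57 in CsUBC13-OE and -0.35 in Col-0.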

How the data were processed

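Root RNA of 6 groups was measured on 18 Affymetrix ATH1 arrays, 3 biological replicates a group per the labels. The authors deposited linear signal intensities, with 1 value for a probe set on an array. The software that summarised the probes is not given in the sources. Array medians ran from 189.7 to 201.8 without iron and from 197.1 to 211 with iron, and correlations between arrays from 0.958 to 0.991. Precision is limited by how many arrays there are.

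The 64 control probe sets were left out of 22810, and 22746 were tested. By the platform annotation 13513 named 1 gene, 503 several and 8730 none; RefSeq (TAIR10.1) matched 13436. In lists the brightest probe set stood for its gene. The fit used log2(signal + 16), limma 3.58.1 in R 4.3.3, 6 group means and 12 residual degrees of freedom, with Benjamini-Hochberg adjustment over all probe sets and calls at an adjusted p under 0.05. Figures were drawn with matplotlib 3.10.9 in Python 3.11.15, from tables read by pandas 2.3.3. The fit was tested on simulated data.

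The named moderate genes are the 14 higher and 14 lower with the smallest p among probe sets of 1 gene with a mean signal of at least 100, called in the mean but in no genotype, with 1 sign in all 3 genotypes. Added were up to 4 called members of each list, the 3 strongest genes a direction and 2 genes on each side of the threshold. The members and lists were chosen with earlier results of these data known, and 23 further lists, 38 being planned, and the other genes named were picked once values had been seen. Among the 23 were the lists for subgroup IVc bHLH factors, ATG8, ESCRT and Vps, succinate dehydrogenase, the plastid genome, photosystems and tetrapyrroles. Also among them were those for RALF, PDF2, GH9, TBL and jacalin proteins, beta-glucosidases and serine carboxypeptidase-like genes. So were those for ubiquitin-specific proteases, LOG2-like ligases, GID1 receptors, bZIP factors, tetraspanins, MADS-box factors and methionine sulfoxide reductases. Of the planned lists 22 had a measured gene, with 36 of 227 members listed by locus.

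Alternatives were quantile normalization, median centring, pseudocounts of 1 and 64, leaving out the dimmest 40%, a trend with robust moderation, an additive model, array weights, replicate blocks, each array and each genotype left out. Same-numbered arrays did not deviate together in every pair (4 of 9 correlations were over 0.1), so replicate blocks stand in the closing section.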

Additional observations from a re-analysis of the deposited data

Results flagged for a closer look

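Of 312 sets of 9 arrays of 1 supply, for 156 named genes, 10 (3.21%) had an array far from the rest, with the gap to the nearest array given as a share of the set's whole range, both on the log2(signal + 16) scale, while the signals printed are linear; chance flags about 1 in 20. Without iron, AT4G34950 was low in replicate 1 of ubc13A (623.8, next 1146.5, share 0.66), HCF101 in replicate 1 of ubc13A (75.2, next 117.2, share 0.54) and MSRB5 in replicate 1 of Col-0 (2511.3, next 2969.3, share 0.53). With iron, replicate 1 of ubc13A was low for AT4G34950 (480.3, next 716.4, share 0.56) and PSAE-1 (405.3, next 651.3, share 0.49), replicate 2 for AT3G58600 (575.5, next 727.6, share 0.64) and replicate 3 for UGT72B3 (77.3, next 108, share 0.58). Also with iron, replicate 2 of CsUBC13-OE was high for RALFL33 (2019.4, next 1719.7, share 0.49) and low for CYP71B23 (188, next 258.3, share 0.60) and GSTU26 (548, next 744.2, share 0.51).

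The iron effect on AT2G06140 differed between the genotypes by a moderated F test in limma (adjusted p 0.0437), at log2 -0.16 in ubc13A, -1.31 in CsUBC13-OE and 0.10 in Col-0. This call was lost with a pseudocount of 64, trend and robust moderation, either replicate block or any genotype left out.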

How the results depend on the processing

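As reported there were 3241 calls, 1830 of them in the mean alone. The 10 alternatives that kept all arrays gave totals of 3056 to 3676 calls, with 1682 to 2021 in the mean alone. These are not all the same probe sets. Of the 1830, 978 (dimmest 40% left out) to 1778 (additive model) stayed called in the mean alone. With a genotype left out the calls came to 2014 without ubc13A (1123 of them lower), 1813 without CsUBC13-OE (829 higher, 984 lower) and 1681 without Col-0 (762 higher, 919 lower), and those in the mean alone to 945 (356 higher, 589 lower), 785 (290 higher, 495 lower) and 793 (294 higher, 499 lower); these fits have fewer arrays. Of the 1830, 32.8%, 28.3% and 24.3% were still called. Centring on the median gave 1283 lower calls, 730 of them in the mean alone, and kept 67.7% of the 1830. Without 1 array the calls ran from 2691 to 3198 (1127 to 1297 higher, 1557 to 1901 lower) and those in the mean alone from 1506 to 1819 (534 to 615 higher, 957 to 1204 lower). Differences between genotypes were called for 0 to 2 probe sets without 1 array, 2 with array weights, and 0 with a pseudocount of 64, the dimmest 40% left out, trend and robust moderation, either replicate block or a genotype left out; the cause was not tested.

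The replicate block by genotype and number gave 3311 calls and 1931 in the mean alone, keeping 79.9% of the 1830, and that by number alone gave 3407 and 1844. Correlations of same-numbered arrays' deviations were 0.07, 0.01 and 0.09 in ubc13A, 0.20, -0.06 and -0.01 in CsUBC13-OE and 0.26, 0.11 and 0.15 in Col-0, and 7 of 9 arrays correlated best with their own number. Of 145 named genes called, 134 had a value under all 31 alternatives and 65 of these stayed called in all; the other 11 were too dim to be tested with the dimmest 40% left out, and 6 of them stayed called elsewhere. The first block ended 21 calls and centring 22. Leaving out ubc13A, CsUBC13-OE or Col-0 ended 44, 59 and 60 of the named calls, and the text above does not give every such loss. No called gene changed direction.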

Other observations

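Over all genes measured 5% were higher and 7.23% lower. Both measured members of the list of metal transport and storage genes were higher. MTP8, a metal transporter of the vacuole, rose by log2 4.69, and ZIP9, a metal transporter, by log2 1.05. TET8, a tetraspanin of secreted vesicles, rose by log2 1.04, with 3730 to 5372 on the -Fe arrays, against 1827 to 2501 on the +Fe arrays, and was the one call among 15 measured tetraspanins. Of 14 measured bZIP factors, bZIP19, which regulates zinc uptake (log2 0.62), and BZIP60, a factor of the unfolded protein response (log2 0.45), were higher with no overlap between supplies, and bZIP58 was lower (log2 -0.42); 3 were higher after quantile normalization and 4 with arrays centred on the median. GH3.3, an enzyme that conjugates plant hormones to amino acids (log2 1.64), was the one call among 13 measured genes of auxin response and conjugation, or 1 of 2 after quantile normalization. The cell-cycle list had 3 measured genes, of which AUR2, an Aurora kinase, was lower (log2 -0.30). Of 29 measured serine carboxypeptidase-like genes 2 were higher and 5 lower, or 3 lower after quantile normalization or with arrays centred on the median.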
